A study of Drosophila melanogaster with 2 samples.

Results

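CG1792 and Mnat9 are a pair of divergent genes on Drosophila chromosome arm 3R whose starts lie 143 bp apart, and binding of the CG1792 protein was examined at the promoter they share. The pair was chosen by name from the Ensembl annotation of BDGP release 6, as 2 of 13945 protein-coding genes. With it went every listed region whose summit fell within 5 kb of either gene. In the final list, which the authors thresholded by how well regions repeat between replicates, 3 of 2892 summits met that rule. All values came from 1 group, so the results are descriptions and no test was made between conditions. The embryos were 0 to 24 h old, of both sexes, pooled and whole, from a stable transgenic strain, CG1792-GFP, in which GFP is joined to the C terminus of CG1792. Chromatin was sonicated to fragments of 200 to 800 bp and precipitated with an antibody to GFP, although another label names CG1792 as the antibody. The 2 libraries were biological replicates 2 and 3, without a control library among them. The sources used here do not give the promoter that drives the fusion gene, its insertion site or its copy number, nor whether untagged CG1792 was also present.

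CG1792 belongs to the zinc finger proteins with a zinc-finger associated domain (ZAD), a large insect family of DNA-binding proteins in which the N-terminal ZAD lets molecules pair and the C2H2 fingers contact DNA. Mnat9 encodes a microtubule-associated acetyltransferase related to human NAT9. Divergent genes that start back to back are common in the compact fly genome, and the short stretch between them can serve as promoter for both. Chromatin immunoprecipitation with sequencing (ChIP-seq) then cannot assign a peak there to one gene or the other.

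CG1792 (FBgn0039860) lies on the plus strand of dm6 at chr3R:31616303-31617837. It has 1 annotated transcript with 4 exons, which encodes 372 residues. A pair of CxxC motifs, the metal-binding pattern of the ZAD, spans residues 6 to 57, and 5 matches to the C2H2 finger pattern begin between residues 198 and 311. Mnat9 (FBgn0039859) lies on the minus strand at chr3R:31615284-31616160 and encodes 200 residues. Its 2 transcripts start 140 bp apart, at 31616160 and, further inside the gene, at 31616020. The first start faces CG1792 across a gap with no annotated exon, and its first exon of 89 bp is 5′ UTR. The 3′ end of Mnat9 overlaps that of Med, which encodes the Smad4 homologue of BMP signalling. On the other side of CG1792, 140 bp past its end, begins pasha, which encodes the partner of Drosha in microRNA processing.

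The whole stretch between the starts is shown first, since it is the promoter at issue. It is the plus strand of dm6, chr3R:31616161-31616302, read from the first base past the Mnat9 start to the last base before the CG1792 start, and capitals mark words of 8 or more bases that occur again in the stretch. The second sequence, chr3R:31616147-31616176, begins at the main summit, crosses the Mnat9 start and ends inside the first, and its capitals mark short words that were frequent under the other peaks, described further on.
Between the starts: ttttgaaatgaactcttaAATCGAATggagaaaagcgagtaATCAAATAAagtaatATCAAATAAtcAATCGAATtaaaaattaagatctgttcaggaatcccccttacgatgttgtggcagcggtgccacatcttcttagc
From the summit: aaataaggtAATATTTTTGAAATgaactct

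One strong peak and one weak peak marked the shared promoter in every dm6 list. The strong peak covered chr3R:31616014-31616323, 310 bp, in the pooled list, which the authors called on both replicates together. Its summit, at 31616147, lay in the 5′ UTR of Mnat9, 13 bp inside the outer start of that gene and 156 bp upstream of CG1792 (position −156). It was also 127 bp upstream of the inner Mnat9 start. The summit thus sat at the edge of the stretch between the genes, on the Mnat9 side. The pooled peak and that of replicate 3 covered the whole stretch and reached into the 5′ UTRs of both genes, whereas the replicate 2 region (31616039 to 31616298) ended short of the CG1792 start. In replicate 2 the summit was at 31616150 (−153 from CG1792 and 10 bp inside Mnat9), and in replicate 3 it was at 31616147, as in the pooled list.

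The deposited signal, the strength of a region as the peak caller wrote it, has no stated scale, so strength is given by rank within a list or as a ratio within a list. The strong peak had a signal of 620.7 in the pooled list, which placed it 30th of 30000 regions. It ranked 37 in replicate 2 with a signal of 287, and 29 in replicate 3 with 337. Each of these is among the strongest regions of its list, and the pooled value was 39.1% of the highest signal anywhere. The ratio to the median region of the list was 23.3 in the pooled list, 17.9 in replicate 2 and 23.3 in replicate 3. The median pooled region, at 26.7, was weaker than any thresholded peak. Against the median of the thresholded list, 100.6, the strong peak was 6.17 times as high. In pooled rank it fell between a peak near CG10555 on X (rank 29, signal 628) and a peak near larp, an RNA-binding protein gene, on 3R (rank 31, signal 617).

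The weak peak lay on the other side of the promoter, inside CG1792. Its pooled summit, at 31616347, was 44 bp past the CG1792 start, in the 5′ UTR, and 187 bp upstream of Mnat9. The pooled signal of this peak was 72.4, with 30.4 in replicate 2 and 38.4 in replicate 3, at ranks 2537, 3395 and 2791. The lowest signal in the thresholded list was 66.97, and the first region past that list had 66.96, so this peak was just inside. The thresholded list thus held the strongest pooled regions by signal. Being in it does not show that a given region repeated between replicates. The strong peak exceeded it by 8.57 times in the pooled list, 9.46 times in replicate 2 and 8.76 times in replicate 3. The ratio is within each list, so a constant factor between lists cancels, but whether the signal is linear is not stated.

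The distance between the strong and weak summits was 200 bp in the pooled list and in both replicates. Their regions overlapped by 185 bp in the pooled list. No pair of neighbouring summits lay closer than 199 bp anywhere in the pooled list, and 1582 neighbouring pairs lay 190 to 210 bp apart. The spacing at this promoter is therefore the smallest that occurs in the list to within 1 bp, and whether the weak peak is a separate binding site was not tested.

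**Figure D1:**
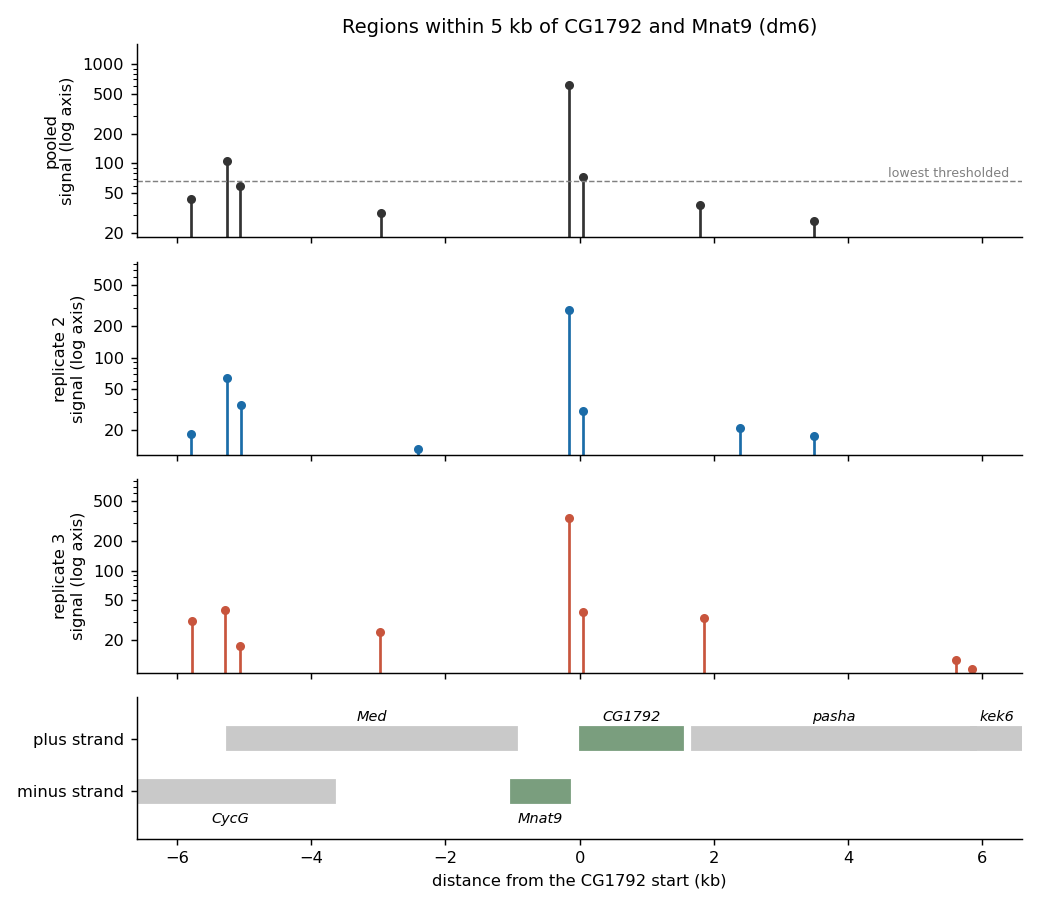
Regions by distance from the CG1792 start in kb, with the deposited signal on a log axis in the pooled list and the 2 replicate lists, above the annotated genes. Each line with a point is 1 region at its summit, the dashed line is the lowest thresholded signal, and each panel starts at the lowest signal of its list; the strong summit at the Mnat9 start stands above every other region in the window in all 3 panels.

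The strong peak was narrower than most and placed alike in both replicates. Its 310 bp compare with a common width of 416 bp, which 2427 of the 2892 thresholded peaks had, and 392 peaks (13.6%) were as narrow or narrower. Of the 100 strongest peaks, 90 were narrower than the common width and 36 were as narrow as this one or narrower, with a median of 338.5 bp. In replicate 2 the peak measured 260 bp and in replicate 3 it measured 281 bp. The replicate summits were 3 bp apart, both for the strong and for the weak peak. The weak summit lay 200 bp from the strong one in both replicates, so its 3 bp follows from the strong one. It is not separate agreement. Over the 2753 thresholded peaks with a summit in both replicates within 100 bp, the median distance between replicate summits was 23 bp, and 11.8% had 3 bp or less. Among the 100 strongest the median was 11 bp.

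The pair of summits did not change order between replicates. The log2 ratio of the signal in replicate 3 to that in replicate 2 was 0.23 for the strong peak and 0.34 for the weak one. Over all matched peaks the median of this ratio was 0.21 with an SD of 0.52, so both summits lay close to the typical peak. The level of the ratio depends on the unstated scales and is not a difference between the libraries.

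**Figure D2:**
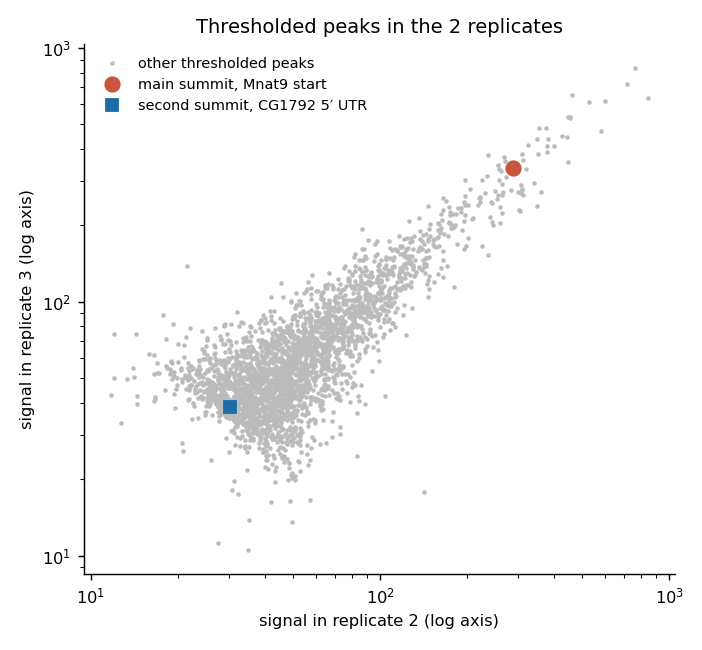
Signal of each thresholded peak in replicate 2 (x) and replicate 3 (y), both on log axes, for the 2753 peaks found in both. The strong summit at the Mnat9 start is near the upper end at 287 and 337, and the weak summit in the CG1792 5′ UTR is in the dense lower part at 30.4 and 38.4.

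Both genes counted as bound, by the rule that a thresholded summit lies within 500 bp of an annotated start. The background share by that rule was 14.2% of genes (1981 of 13945). Both also had 2 such summits, which 1.14% of genes had (159 of 13945). These calls rest on the same 2 summits for both genes and are not separate evidence for each. In all, 24 genes, CG1792 and Mnat9 included, had a peak at least as strong within 500 bp of a start. The calls stayed with a window of 250 or 1000 bp.

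The rest of both genes held no region. Past the weak peak, the body of CG1792 had 0 summits in the pooled list and in either replicate, and Mnat9 had 0 outside the promoter peaks. The next pooled summit was 264 bp past the end of CG1792, near the start of pasha (31618101, 124 bp inside the gene), where its rank was 7628 and its signal 37.95. In replicate 3 the nearest one was at 31618158, with a signal of 33.3. In replicate 2 it was further off, at 31618692, with a signal of 21.1. No thresholded summit lay at pasha, and these regions were weaker than the weak summit in their own lists.

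The third thresholded summit within 5 kb was on the far side of Med, more than 5 kb from CG1792. It was at 31611041, 5 bp upstream of the Med start and inside CycG, the cyclin G gene, whose transcripts start on both sides of it. Its pooled signal was 106, with 63.1 in replicate 2 and 39.6 in replicate 3, at ranks 1301, 874 and 2628. The strong promoter peak was 5.84 times as high in the pooled list, 4.55 times in replicate 2 and 8.50 times in replicate 3. The next thresholded summit beyond it missed the window by 573 bp and had a signal of 83.6. In all, 8 summits of the pooled list, 8 of replicate 2 and 9 of replicate 3 fell in the window. The pooled ones other than those named had signals of 26.4 to 59.8. Near the start of kek6, a gene for a transmembrane protein with leucine-rich repeats that runs on past the window, the pooled list had none within the 5 kb. Replicate 3 had a summit 218 bp upstream of kek6 (31621918, signal 12.6, rank 19006) and another 11 bp inside it (31622147, signal 10.1), where the lowest signal of that list was 9.32.

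The neighbourhood was rich in regions of the pooled and replicate lists, most of them on the Mnat9 side of the strong summit, across CycG. Each of these lists has 30000 regions, against 2892 thresholded peaks. The pooled list holds background regions as well as peaks, so a region in it is not in itself a bound site. Within 20 kb of the summit lay 30 pooled regions, the promoter peaks included, against a median of 12 at the starts of 13865 protein-coding genes on the large arms. Of these starts, 99.2% had fewer. In replicate 2 the count was 21 (91.2% had fewer) and in replicate 3 it was 33 (99.7%). The thresholded list had 5 summits within 20 kb, the 2 promoter peaks included, against a median of 1, and 95.9% of starts had fewer. The window here was centred on a peak and the others on gene starts, bound or not, so the promoter peaks add to its counts. Within 50 kb the excess was smaller, with 41 pooled regions (80.2% had fewer), 32 in replicate 2 (61.2%) and 43 in replicate 3 (82.6%). Between 5 and 20 kb from the summit there were 21 pooled regions on the Mnat9 side and 3 on the CG1792 side. The same counts were 14 and 1 in replicate 2, and 23 and 5 in replicate 3. The side with CG1792 and pasha was therefore the sparser in each list.

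CycG itself, 16023 bp long, held 20 pooled summits, or 12.5 per 10 kb. The median over 1937 protein-coding genes of 10 kb or longer was 2.16 per 10 kb, and 99.9% of them had a lower density. The density in CycG was 8.74 per 10 kb in replicate 2 and 13.7 in replicate 3, higher than in 99.3% and 99.9% of those genes. Most of these regions were weak. The strongest thresholded signal within 20 kb other than the promoter peak was 109.3. The cause of the clustering was not tested, and the labels do not say which stretch of DNA the fusion gene carries.

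**Figure D3:**
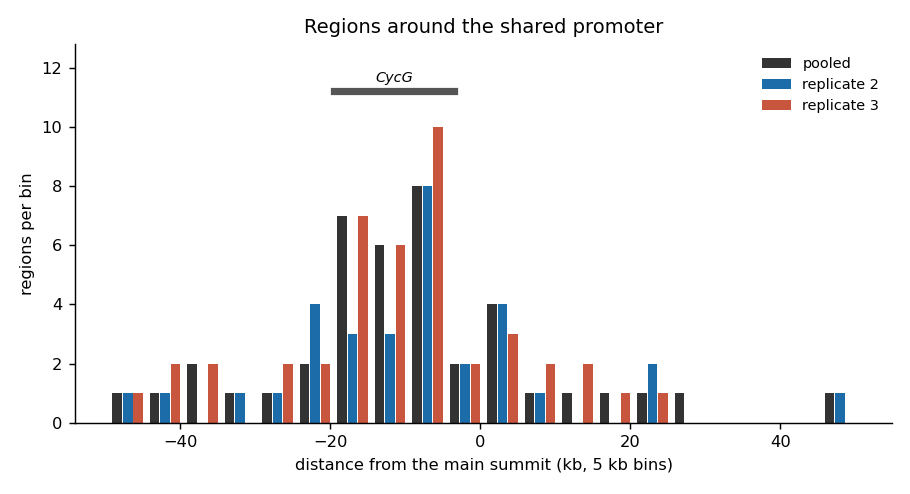
Number of regions in 5 kb bins by distance from the strong summit in kb, with negative distances on the Mnat9 side, for the pooled list and both replicates. The bar above marks CycG; the bins from −20 to −5 kb hold 21 pooled regions, against 3 in the bins from 5 to 20 kb.

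Divergent promoters gave the closest comparison. Of 2146 divergent protein-coding pairs with starts up to 1000 bp apart, 510 were bound (23.8%), counting a thresholded summit between the starts or within 250 bp of either. By signal the Mnat9 and CG1792 pair ranked 9 of the 510, with 620.7 against a median of 101.9. Its gap was shorter than usual, 143 bp against a median of 288 bp in bound pairs and 300 bp in all pairs. Pairs 100 to 200 bp apart were bound in 62 of 299 cases, or 20.7%.

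In position the pair was in the minority. The strongest summit lay between the starts in 380 bound pairs (74.5%) and inside a gene in the other 130. At Mnat9 it lay 13 bp inside, and the median depth over those 130 was 59 bp. These shares were not taken by gap length, and the gap of 143 bp here is shorter than the median of 288 bp. Of the 20 strongest pairs, 11 had the summit between the starts. A second summit was rarer still. At least 2 summits marked 33 of the 510 bound pairs (6.47%), this pair among them, and 5 of the 20 strongest. Among the 100 strongest thresholded peaks of any kind, 14 had another thresholded summit within 250 bp, against 6.78% of all thresholded peaks.

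The 5 divergent pairs most like this one in log2 signal over both replicates were named by their Euclidean distance from it, over 2 libraries. The nearest was Fbw5, an F-box gene, with CG9147 on 2L, at a distance of 0.12. Its signals were 272 in replicate 2 and 359 in replicate 3, and its summit also lay inside a gene, at a depth of 114 bp. Atat, a tubulin acetyltransferase gene, with the adaptor gene Shc on 3L followed at 0.31, with signals of 310 and 275. The mitochondrial ribosomal protein gene mRpS23 with CenG1A on 2L was at 0.35, with 324 and 415. CG7601 with CIA30, a gene for assembly of respiratory complex I, on 3R was at 0.37, with 264 in each replicate. Vha16-5, a proton pump subunit gene, with CG12299 on 2L was at 0.38, with 313 and 263. Each of these 5 had 1 thresholded summit, where Mnat9 and CG1792 had 2. The second summit here had a pooled signal of 72.4, just above the lowest thresholded signal of 66.97, so this count depends on the threshold.

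**Figure D4:**
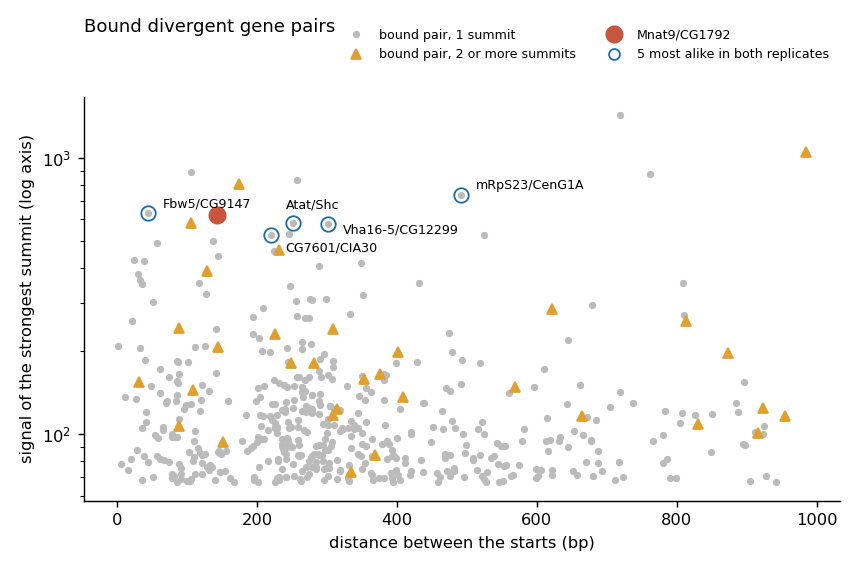
Bound divergent gene pairs by the distance between their starts in bp (x) and the pooled signal of the strongest summit on a log axis (y). Mnat9/CG1792, at 143 bp and 620.7, is among the highest of the pairs under 200 bp apart; triangles mark pairs with 2 or more thresholded summits, and open circles the 5 pairs most alike in both replicates.

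Genes of the families to which the members belong were looked at next. The ZAD list held 24 genes chosen by name, of which 23 matched the annotation. Of these, 10 were bound (43.5%), CG1792 among them, against 14.2% of all genes. Without CG1792, which was chosen beforehand, 9 of 22 were bound. CG1792 had the highest signal of the 10. The others were Sry-delta (signal 160), a regulator of the early embryonic patterning gene bicoid, D19B (157), Phs (135), pad (105), prg (100.6), M1BP (83.3), which encodes the factor that binds the Ohler 1 promoter element, Zif (82.4), the insulator protein gene pita (75.8) and hang (71.5). The next ZAD gene, Sry-delta, ranked 599. These signals are from the pooled list. The list is a selection and gives no share for the whole family. The peaks at D19B, pad, prg, M1BP, Zif and hang, like that at CG1792, were also peaks of bound divergent pairs. Such peaks cannot be assigned to one gene or the other. At CG1792, as at D19B and M1BP, the summit with this signal lay nearer the start of the partner gene. The strong summit was 156 bp upstream of CG1792 and 13 bp inside Mnat9. The weak summit, 44 bp past the CG1792 start, had a signal of 72.4. Of all divergent pairs, 23.8% were bound. Of 11 genes for N-terminal acetyltransferases and their partners, 1 was bound (9.09%), against 14.2% of all genes. That gene was Mnat9, which was chosen beforehand. The other 10 had 0 thresholded summits within 500 bp of a start.

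In base composition the promoter was like those of other bound pairs. The share of A and T was 65.5% between the starts, against a median of 65.0% in the gaps of 485 other bound pairs more than 50 bp apart. Stretches of the same length before all protein-coding starts had a median of 61.3%. The share was uneven along the stretch. The 71 bp next to Mnat9 had 74.6% and the 71 bp next to CG1792 had 56.3%. In windows reaching 50 bp to either side, the strong summit had 62.4% and the weak one 70.3%. The median was 64.4% over the other thresholded peaks and 67.3% over 99 other peaks of the 100 strongest. For the 27108 pooled regions past the thresholded list, used as background, it was 57.4%.

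Words of 8 or more bases recurred in the stretch, mostly on its AT-rich side, with the last copy (−75 to −68) across the midpoint. AATCGAAT occurred at −124 and −75 from the CG1792 start, and ATCAAATAA at −101 and −86, so that the outer pair encloses the inner one. Counted as 8-base words, 3 distinct words were repeated. Of 13945 stretches of the same length before protein-coding starts, 43.4% had at least 1 repeated 8-base word on the same strand and 14.8% had 3 or more, so such repeats are common at promoters.

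None of 9 known promoter and architectural elements was found within 50 bp of the strong summit, within 50 bp of the weak summit or between the starts. They were searched on both strands, and were the DRE bound by Dref (TATCGATA), its overlapping part CGATA, the Ohler 1 core (GGTCACAC), Ohler 6, Ohler 7, the E-box CAGCTG, the TATA box TATAAA, the initiator TCAGT and the GAGA element GAGAG. The DRE occurred in 2.70% of the other thresholded summit windows, 0.871% of background windows and 6.70% of the stretches before starts. CGATA occurred in 18.9%, 13.1% and 33.1%, and the TATA box in 16.2%, 11.6% and 27.8%. The stretches before starts were as long as the stretch between the genes, and so longer than the summit and background windows. A longer stretch has more room for a match, so its shares are not directly comparable with those of the windows. The remaining elements were present in 0.519% to 19.2% of the other summit windows. Within both peaks joined, 1 match was found, CAGCTG at −225 from CG1792, which is 69 bp from the strong summit on the far side and in the 5′ UTR of Mnat9. Absence says only that these letters are not in these windows.

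Of the 20 words of 7 bases most in excess under the other thresholded peaks, relative to windows 300 bp away, 4 were present at the strong summit. They were AAATATT and its neighbour AAAATAT, then TTCAAAA and its neighbour ATTTCAA, all on the minus strand. They overlap in 1 run of 14 bases from 9 to 22 bp past the summit, the run in capitals in the second sequence, which crosses the Mnat9 start. As many or more of the 20 words occurred in 14.4% of the other thresholded windows, 16.2% of those of the 100 strongest and 7.57% of background windows. The words were taken from those same peaks, so the first 2 shares are built in part into the choice, and AT-rich words also follow base composition. The weak summit window held 3 of the 20.

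The peak was also found in the lists made on dm3, an older build. It was matched by its own values, that is signal within 5%, width within 10 bp, and the spacing and signal (within 20%) of its weak neighbour. In each dm3 list 1 region met the rule. Likeness to dm6 in these values, and in the ranks that follow from signal, is therefore built into the match. In the pooled dm3 list the matched region covered chr3R:27441737-27442045, with a signal of 620.8 and rank 30, as in dm6. Its ranks were 37 in replicate 2 and 29 in replicate 3, the same as in dm6. The weak summit was 200 bp away in the pooled list and ranked 2517. In replicate 3 it was 1 bp further away, with a signal of 31.1 (rank 3931), and the strong summit exceeded it 10.8 times, against 8.76 times in dm6. Within 5 kb of the dm3 summit lay 6 pooled summits, and all 6 had a dm6 summit at the same distance to within 25 bp.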

How the data were processed

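The authors deposited peak lists for dm6 and dm3 (4 lists each: thresholded, pooled, replicate 2, replicate 3), called against a control alignment that was not analysed here. The aligner and the peak caller, with versions, were not given in the sources used here. Ranks used the deposited signal, the strength of a region. The deposited −log10 q-value was used for 1 alternative rank. The deposited summit offset gave positions, written 1-based. Depth is unknown, so no interval is given; biological replicates are as the labels say. Genes are from Ensembl release 115, and sequences from the NCBI Release 6 genome (dm6). The dm3 peak was matched by its values, with no conversion of coordinates. Values were computed with Python 3.11.15, pandas 2.3.3 and numpy 2.4.6, and the counting steps were tested on simulated data. The genes, lists and rules were chosen with earlier results of these data known. Named genes were the pair, genes within 5 kb, the 5 most alike divergent pairs, bound members of the 2 gene lists and the peaks adjacent in rank.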

Additional observations from a re-analysis of the deposited data

How the results depend on the processing

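Of 33 alternatives, 18 gave the same result, 14 moved and 1 reversed. The call of both genes as bound was the same in each of its 4 alternatives. The number of pooled summits near the pair was 5 within 2 kb and 17 within 10 kb, which follows from the window, and 8 to 9 with a replicate left out. The rank of the strong peak was 29 to 37 with a replicate left out; by −log10 q-value it was 1, because that value is tied at its highest for many regions. The summit was −156 to −153 from CG1792 and 10 to 13 bp inside Mnat9 with a replicate left out. The midpoint of the region, in place of the summit, was −134.5 from CG1792 and −8.5 from Mnat9, so that it lay between the starts. The rank among bound divergent pairs was 6 for pairs up to 500 bp apart, which are fewer, and 9 to 13 with a replicate left out. The share of gene starts with fewer regions nearby fell to 80.2% at 50 kb (61.2% in replicate 2 alone), and was 91.2% to 99.7% at 20 kb with a replicate left out; the cause was not tested. A window of 100 bp to either side of the summit held 1 consensus element and 7 of the 20 frequent words, and 7 of the 50 most frequent words were within 50 bp. The counts by side and in CycG, the base composition and the repeated words were added after seeing the data. No paired analysis was possible because the 2 libraries form 1 group. The unknown depth and signal scale limit comparison of strength between lists, and both replicates come from the same transgenic strain.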
